A study of Mus musculus with 6 samples.

Results

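The machinery that makes the programmed DNA double-strand breaks of meiosis was followed as 8 genes, Spo11, Top6bl, Mei1, Mei4, Rec114, Iho1, Prdm9 and Zcwpw1, in testes of knockout and of control mice at postnatal day 15. The genes were chosen by name from what they do, with earlier results of these data known. A gene was measured where a row of the deposited table carried its symbol alone. All 8 were found, each with 1 transcript cluster (a set of probes that together read 1 transcribed region), among 21789 clusters that stand for 19938 genes. Top6bl is listed on the platform as Gm960. RNA of 3 knockout and 3 control samples was hybridised to 6 Affymetrix Mouse Gene 1.0 ST arrays. The groups are knockout and control testes, with strain, details of the allele, the cells that lost the gene and the origin of the controls not given in the sources used here. Whether each replicate is a separate animal is not stated either, and the p-values rest on a spread between samples that may be technical.

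Meiotic recombination begins when SPO11, a relative of the DNA-cutting subunit of archaeal topoisomerase VI, cuts both strands of a chromosome together with its partner TOPOVIBL, the product of Top6bl. REC114, MEI4 and IHO1 assemble on the chromosome axis and MEI1 works with them, and without any one of these proteins mouse spermatocytes make few or no breaks. PRDM9 binds DNA through its zinc fingers and methylates histone H3 nearby, which places the breaks, and ZCWPW1 reads those marks and is needed for the repair of the breaks rather than for making them. The proteins act in leptotene and zygotene, the first stages of meiotic prophase, which the first wave of germ cells has passed through by this age.

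The upstream sequences of the genes are shown because members lay on both sides of the controls. RefSeq's table of gene starts on GRCm38.p6 held 9 stretches of 300 bases (250 before the start to 50 after) for 7 of the 8 genes, all but Spo11. Of these, 4 are printed from 5′ to 3′ on the strand of the gene: those of Mei1 (chr15:82082226-82082525, plus strand) and Rec114 (chr9:58741510-58741809, minus strand), which lay below the controls, and those of Top6bl (chr19:4698619-4698918, minus strand) and Prdm9 (the more upstream of its pair of starts, chr17:15564305-15564604, minus strand), whose means lay above them. Capitals mark matches, on either strand, to CNCCTCAG, the motif of the meiotic initiators STRA8 and MEIOSIN, to CACGTG, the E-box bound by MGA and MAX in repressors of germline genes, or to CAACTG, a motif of MYB factors.
Mei1: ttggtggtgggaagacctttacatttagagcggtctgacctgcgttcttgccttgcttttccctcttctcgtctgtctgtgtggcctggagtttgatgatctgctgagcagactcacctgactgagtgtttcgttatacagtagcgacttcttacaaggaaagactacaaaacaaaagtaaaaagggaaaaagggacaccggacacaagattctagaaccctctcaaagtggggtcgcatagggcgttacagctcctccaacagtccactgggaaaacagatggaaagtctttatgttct
Rec114: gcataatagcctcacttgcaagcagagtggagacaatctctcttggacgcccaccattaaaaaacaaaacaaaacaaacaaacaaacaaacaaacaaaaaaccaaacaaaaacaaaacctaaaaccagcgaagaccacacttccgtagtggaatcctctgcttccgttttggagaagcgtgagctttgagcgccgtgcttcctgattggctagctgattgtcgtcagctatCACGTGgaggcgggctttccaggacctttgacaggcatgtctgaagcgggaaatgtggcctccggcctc
Top6bl: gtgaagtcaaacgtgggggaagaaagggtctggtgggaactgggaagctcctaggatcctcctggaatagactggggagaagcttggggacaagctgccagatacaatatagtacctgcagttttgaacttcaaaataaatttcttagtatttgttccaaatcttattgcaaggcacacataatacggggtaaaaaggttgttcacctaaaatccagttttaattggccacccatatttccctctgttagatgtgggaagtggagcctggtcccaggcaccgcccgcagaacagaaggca
Prdm9: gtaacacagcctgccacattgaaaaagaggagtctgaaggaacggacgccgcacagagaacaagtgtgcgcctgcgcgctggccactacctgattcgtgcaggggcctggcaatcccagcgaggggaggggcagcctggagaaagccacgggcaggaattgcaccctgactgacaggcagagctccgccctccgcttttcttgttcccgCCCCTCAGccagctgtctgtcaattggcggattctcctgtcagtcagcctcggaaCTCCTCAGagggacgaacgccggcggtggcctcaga
The Prdm9 stretch held 2 matches to CNCCTCAG and that of Rec114 held 1 match to CACGTG, while none of the 3 motifs occurred in those of Mei1 and Top6bl. Over the 9 stretches, CNCCTCAG occurred in 1, CACGTG in 1 and CAACTG in 2, both of them starts of Zcwpw1, and no match overlapped another. Among all 32851 stretches in the table, 7.94% held CNCCTCAG, 7.15% held CACGTG and 13.7% held CAACTG. A match is a string of letters in this window and not a measured binding site. The other start of Prdm9 and the stretches of Iho1 and Mei4, which are not printed, held none of the 3 motifs. The values of Prdm9 overlapped between the genotypes. A link between motifs and the direction of the differences was not tested.

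Setting knockout against control testes asks whether transcripts of the break machinery differ between the genotypes. Spo11 and Mei1 were lower on every knockout array, Rec114 and Iho1 lay below the controls by less, and Top6bl lay above them. Mei4, Prdm9 and Zcwpw1 had overlapping groups. None of the 8 passed an adjusted p of 0.05 in limma, a threshold that 0.0138% of all tested clusters passed (3 of 21789). At an unadjusted p under 0.05, 3 of the 8 (37.5%) were lower and 1 (12.5%) was higher in the knockout, where 6.45% of all clusters were lower and 4.10% higher. At that p, 4 of 5 pan-germ and 9 of 15 pachytene markers, described below, were lower. So were 4 of 6 genes of differentiating spermatogonia and 3 of 13 early prophase genes, and none in these lists was higher. Of 11 genes of undifferentiated spermatogonia 3 were lower and 4 higher, and of 8 spermatid genes 0 and 1. The split over all clusters turns with the scaling: 1406 were lower and 893 higher as deposited, against 1013 and 1503 once each array was centred on its median, which left the counts of the machinery at 3 lower and 1 higher. With arrays centred on early prophase markers, described below with the germ cell genes, 1 of the 8 was lower and 2 were higher, against 376 and 2087 of all clusters. With pan-germ markers in that place, 1 was lower and 4 were higher, against 259 and 9834 of all clusters. All 3 knockout values lay below all 3 control values in 4 of the 8 genes and above them in 1, against 8.60% and 6.73% of all clusters. The genes were chosen with earlier results known, so these shares are not a test of them. The median difference of the 8 genes was -0.043 on the log2 scale, and that of all tested clusters was 0.0033. Differences are knockout minus control, and the 8 genes are read in the same cells on the same arrays, so they are not independent of each other. In whole testes, fewer cells of a type and less RNA per cell cannot be told apart.

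**Figure D1:**
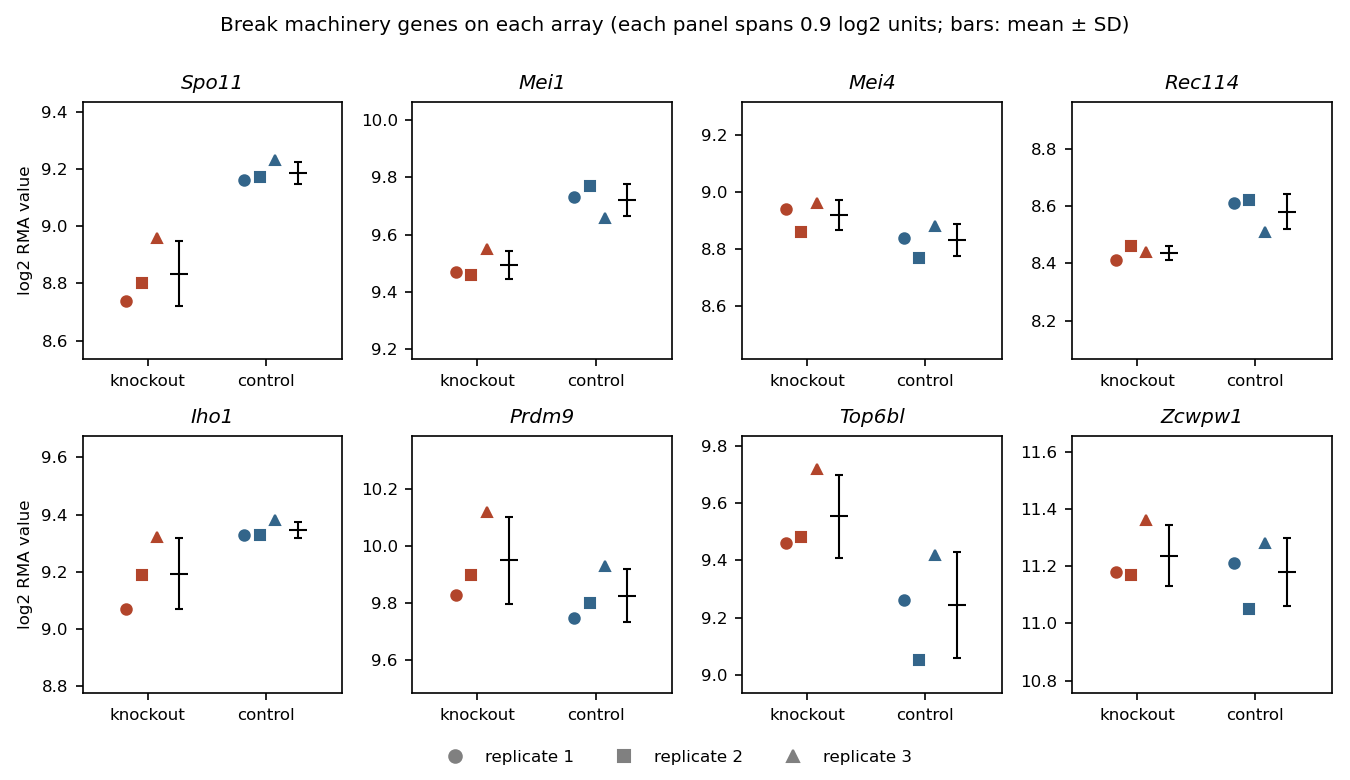
Log2 RMA value (vertical axis) of each break machinery gene on the 3 knockout and the 3 control arrays, with marker shape for the replicate number and black bars for the mean ± SD (n = 3). The groups do not overlap for Spo11, Mei1, Rec114 and Iho1, which are lower in the knockout, and for Top6bl, which is higher.

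Spo11, the catalytic subunit, read 8.74, 8.80 and 8.96 in knockout replicates 1, 2 and 3, against 9.16, 9.17 and 9.23 in the control replicates (transcript cluster 10479010, chromosome 2). Every knockout array lay below every control array, and knockout replicate 3 lay nearest to the controls. The means were 8.83 ± 0.11 in the knockout and 9.19 ± 0.038 in the control (SD, n = 3 each). The difference was -0.35 (SE 0.063, 95% interval -0.50 to -0.20, fold 0.783), with an unadjusted p of 7.39e-04 and an adjusted p of 0.256 in limma. Of the 21789 clusters, 59 (0.271%) had a smaller p. Splicing gives a longer and a shorter form of the mouse protein, which a single cluster value does not separate.

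Top6bl, the partner subunit of SPO11, had the largest positive difference of the 8. It read 9.46, 9.48 and 9.72 on the knockout arrays, against 9.26, 9.05 and 9.42 on the control arrays (cluster 10464793, chromosome 19). The groups were apart by little, since knockout replicate 1 exceeded control replicate 3 by less than the spread within either group. The difference was 0.31 (SE 0.11, 95% interval 0.057 to 0.56, fold 1.24), with an unadjusted p of 0.0227 and an adjusted p of 0.397 in limma. Within each array, Spo11 minus Top6bl was -0.72, -0.68 and -0.76 in the knockout and -0.10, 0.12 and -0.19 in the control. The size of such a difference depends on the probes, and only its shift between the genotypes can be read. That shift was -0.66, from means of -0.72 ± 0.04 in the knockout and -0.057 ± 0.16 in the control (SD, n = 3 each), and it exceeded the spread between replicates. Both genes were high on knockout replicate 3 within its group, so their difference varied less over the knockout arrays than either gene did. The exact two-sided permutation p was 0.1, the smallest that 3 arrays against 3 allow, and 0.167 adjusted over the 5 pairs of partners compared. These pairs were set up after the values were seen, and Spo11 and Top6bl had the lowest and the highest difference of the 8. Each shift is the difference of the first gene minus that of the second, so it is not evidence apart from theirs.

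Mei1, whose protein is required for breaks, read 9.47, 9.46 and 9.55 on the knockout arrays and 9.73, 9.77 and 9.66 on the control arrays (cluster 10425655, chromosome 15). The groups were separate, and the values within each lay close together. The means were 9.49 ± 0.049 in the knockout and 9.72 ± 0.056 in the control (SD, n = 3 each). The difference was -0.23 (SE 0.049, 95% interval -0.34 to -0.11, fold 0.855), with an adjusted p of 0.294 in limma, and 154 clusters (0.707%) had a smaller p.

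The 3 genes of the axis-bound complex of REC114, MEI4 and IHO1, all on chromosome 9, had means below the controls for Rec114 and Iho1 and above them for Mei4, and none of the 3 passed. Rec114 read 8.41, 8.46 and 8.44 in the knockout, against 8.61, 8.62 and 8.51 in the control (cluster 10594103). Its groups were separate, by the narrow margin of control replicate 3, and the difference was -0.14 (SE 0.046, 95% interval -0.25 to -0.034, unadjusted p = 0.0169, adjusted p = 0.380 in limma). Iho1, whose protein is held on the axis by HORMAD1, read 9.07, 9.19 and 9.32 in the knockout, against 9.33, 9.33 and 9.38 in the control (cluster 10596904). The control values were nearly alike and the knockout values spread widely, with knockout replicate 3 just below the controls. The difference was -0.15 (SE 0.066, 95% interval -0.31 to 0.0023, adjusted p = 0.475 in limma), and it was -0.092 without knockout replicate 1 (adjusted p = 0.755). Mei4 read 8.94, 8.86 and 8.96 in the knockout, against 8.84, 8.77 and 8.88 in the control (cluster 10587488). Knockout replicate 2 lay within the control range, and the difference was 0.09 (SE 0.049, 95% interval -0.026 to 0.21, adjusted p = 0.563 in limma).

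Within arrays, Mei4 minus Rec114 averaged 0.48 ± 0.072 in the knockout and 0.25 ± 0.11 in the control, and Mei4 minus Iho1 averaged -0.27 ± 0.13 in the knockout and -0.52 ± 0.038 in the control (SD, n = 3 each). The arrays of the 2 genotypes did not overlap in either difference. For Mei4 minus Rec114 the margin was narrow, with 0.40 in knockout replicate 2 and 0.37 in control replicate 3. The shifts were 0.23 and 0.24, each with an exact permutation p of 0.1, or 0.167 adjusted over the 5 pairs. Rec114 minus Iho1 shifted by 0.01 (exact permutation p = 1), with overlapping groups.

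**Figure D2:**
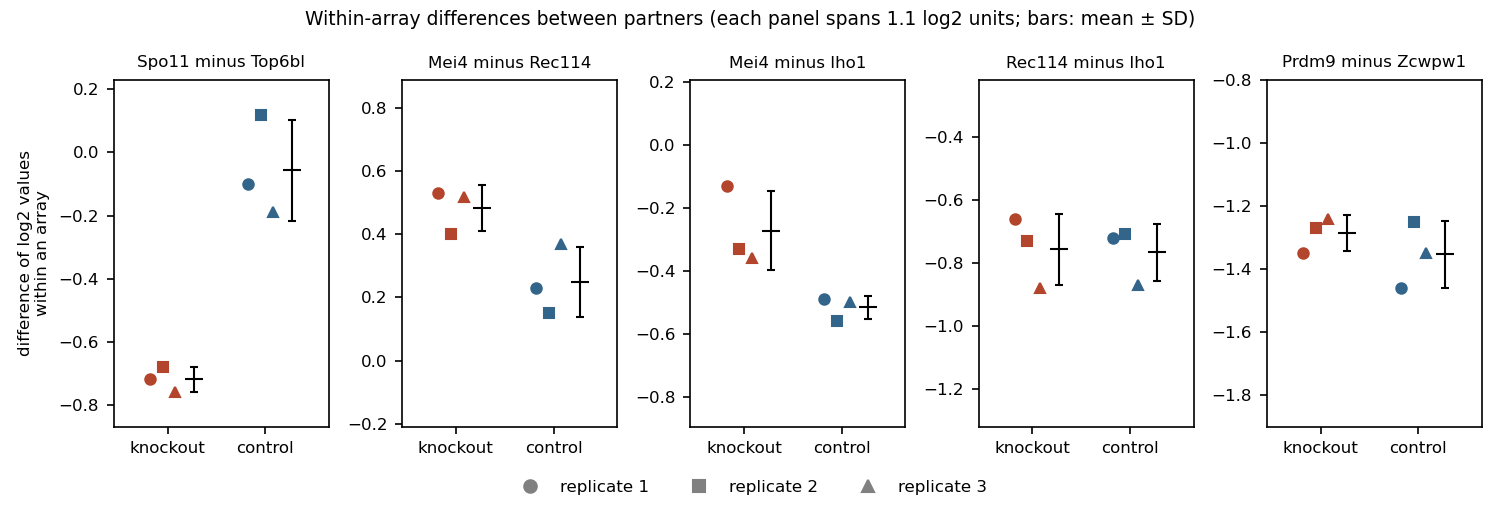
Difference of the log2 values of 2 partners within each array (vertical axis), for the 3 knockout and 3 control arrays, with black bars for the mean ± SD (n = 3). Spo11 minus Top6bl lies between -0.76 and -0.68 in the knockout and between -0.19 and 0.12 in the control, while Rec114 minus Iho1 and Prdm9 minus Zcwpw1 overlap.

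The genes that place breaks and read their marks showed no separation of the genotypes. Prdm9 read 9.83, 9.90 and 10.12 in the knockout, against 9.75, 9.80 and 9.93 in the control (cluster 10448064, chromosome 17). Its difference was 0.12 (SE 0.085, 95% interval -0.076 to 0.32, adjusted p = 0.662 in limma), and it was 0.038 without knockout replicate 3. Zcwpw1 read 11.18, 11.17 and 11.36 in the knockout, against 11.21, 11.05 and 11.28 in the control (cluster 10526693, chromosome 5). In each genotype replicate 3 was its highest array, and the difference was 0.057 (SE 0.078, 95% interval -0.13 to 0.24, adjusted p = 0.845 in limma). Prdm9 minus Zcwpw1 shifted by 0.067, with an exact permutation p of 0.5. The intervals of Mei4, Prdm9 and Zcwpw1 include 0 and also differences as large as that of Rec114 in size, so these arrays do not show that they are alike in both genotypes.

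The arrays of 1 genotype also differed among themselves in a way that most members shared. Knockout replicate 3 was the highest knockout array for 7 of the 8 genes, Rec114 being the exception, and control replicate 3 was the highest control array for 6, the exceptions being Mei1 and Rec114. Over all tested clusters these shares were 30.7% and 28.3%. After each gene's control mean was subtracted, the 8 genes averaged -0.10, -0.074 and 0.065 in knockout replicates 1, 2 and 3, against -0.0029, -0.044 and 0.047 in the control replicates, so the groups overlapped. The mean of 13 early prophase genes (meiotic entry, cohesin and synaptonemal complex) moved in the same way over the knockout arrays, at -0.16, -0.17 and 0.029, against -0.027, -0.0074 and 0.035 on the control arrays. Without knockout replicate 3, the difference of Spo11 was -0.42, that of Mei1 -0.26, that of Iho1 -0.22 and that of Top6bl 0.23, and none passed (adjusted p = 0.312 to 0.586 in limma).

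**Figure D3:**
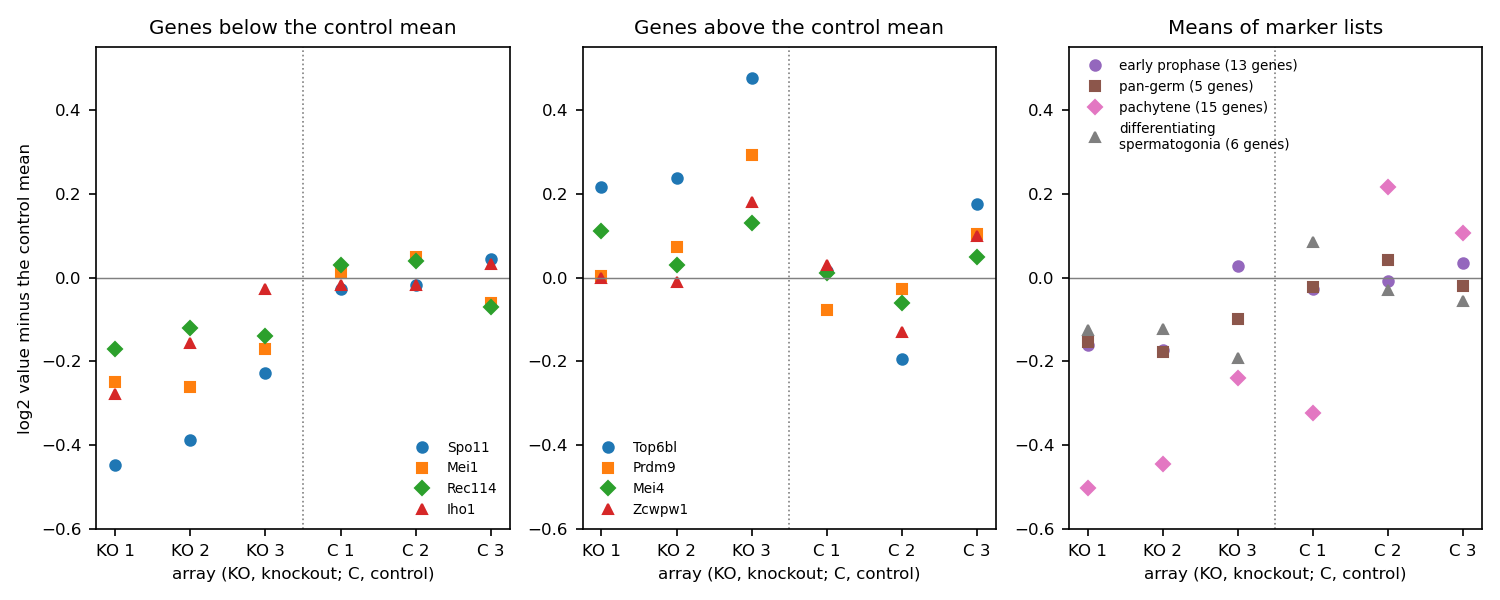
Log2 value minus the control mean (vertical axis) on each array (KO, knockout; C, control; numbers are replicate labels without order) for the 8 break machinery genes (left and middle panels) and for the means of 4 marker lists (right panel). Knockout replicate 3 is the highest knockout array for 7 of the 8 genes and for the early prophase, pan-germ and pachytene lists.

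Markers of the germ cells that carry the machinery also lay mostly below the controls, and with the values as deposited none of them passed in limma. Of 5 measured pan-germ genes, 4 were below the control mean. Their median was -0.18, with list means of 11.55 to 11.63 in the knockout and 11.70 to 11.77 in the control. Mael, of the piRNA pathway (-0.22, SE 0.051, adjusted p = 0.294), and the Argonaute-family gene Piwil2 (-0.18, SE 0.052, adjusted p = 0.358) had the smallest p-values. Of the 13 early prophase genes, 11 were below the control mean (median -0.053), led by the cohesin subunits Stag3 (-0.22, SE 0.053, adjusted p = 0.320) and Rec8 (-0.40, SE 0.11, adjusted p = 0.347). Their list means were 10.74 to 10.94 in the knockout and 10.88 to 10.95 in the control. Stra8, the retinoic acid target that starts meiosis, differed by -0.023. Pachytene markers had a median of -0.31 over 15 genes, 14 of them below the control mean, with list means of 9.23 to 9.50 in the knockout and 9.41 to 9.95 in the control. Relative to the control mean, this list read -0.50, -0.44 and -0.24 on the knockout arrays, against -0.32, 0.22 and 0.11 on the control arrays, so control replicate 1 stood apart from the other controls and lay within the knockout range. The smallest p-values were those of the meiotic cyclin Ccna1 (-0.27, SE 0.066, adjusted p = 0.320) and of Tcp11 (-0.74, SE 0.23, adjusted p = 0.374). Tcp11 passed without control replicate 1 (-1.04, adjusted p = 0.0153). The part of these cells in the differences of the break machinery was not tested.

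Set against those markers, every member's difference moved up by the same amount, because centring adds 1 constant to all genes. With each array centred on the mean of the early prophase genes, the median difference of all tested clusters was 0.11, that of Spo11 was -0.25 (adjusted p = 0.347), that of Mei1 -0.12 (adjusted p = 0.563) and that of Rec114 -0.042. Top6bl then differed by 0.41 and passed (adjusted p = 0.0143 in limma), the 1 member to do so under any setting tried, among 279 clusters called. Under this centring limma used 1 pooled variance for all clusters, with the same SE of 0.108 for each, in place of a variance per cluster, and those calls rest on it. With the pan-germ genes in that place, the median of all clusters was 0.15, Spo11 differed by -0.21 (adjusted p = 0.0633), Top6bl by 0.45 (adjusted p = 0.0568) and Rec114 by 0. Under that centring 42.6% of all clusters had an adjusted p under 0.1. Spo11 stayed below 0 as deposited and under all 3 centrings. Each centring moved every difference up, so Top6bl, above 0 as deposited, could not change sign under them.

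**Figure D4:**
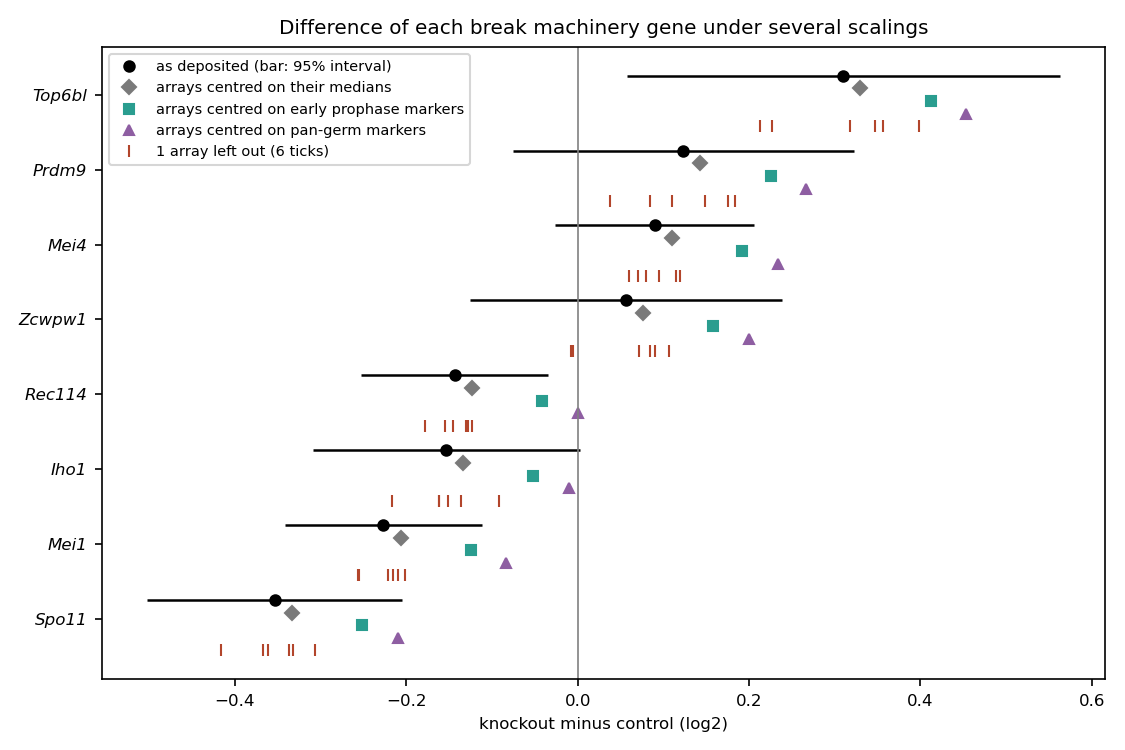
Knockout minus control difference (log2, horizontal axis) of the 8 genes as deposited with the 95% interval of limma, after 3 other centrings of the arrays, and with each array left out in turn (red ticks). Spo11 is below 0 and Top6bl above 0 under all of them, and Zcwpw1 is at -0.005 without knockout replicate 3 and at -0.0083 without control replicate 2. The centrings moved all 8 differences up, so only the left-out arrays could have turned the sign of Top6bl.

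Genes that work beside the machinery were read from 4 lists: partners and regulators of break formation, proteins that work with PRDM9, trimming of broken ends, and strand exchange. Of 37 genes 33 were measured and 25 lay below the control mean, as did 10249 of all 21789 clusters. With the values as deposited 0 passed in limma, and at an unadjusted p under 0.05 7 were lower and 0 higher, where 6.45% and 4.10% of all clusters were. The medians below are those of the values as deposited. All 4 were above 0 once arrays were centred on the early prophase markers (0.028 to 0.082) or on the pan-germ markers (0.07 to 0.12). The medians of all tested clusters were then higher still, at 0.11 and 0.15, because centring adds 1 constant to every difference. The 6 partners and regulators had a median of -0.02, between Trip13, the ATPase that removes HORMAD proteins from synapsed axes (-0.14, SE 0.045, adjusted p = 0.380), and Atm, the kinase that limits break number (0.14, SE 0.079, adjusted p = 0.589). Atm differed by 0.07 without knockout replicate 3 and by 0.072 without control replicate 2. Hormad1, which recruits IHO1, differed by -0.03. Among the 6 genes tied to PRDM9, with a median of -0.037, Cxxc1, a CpG-binding subunit of a histone methyltransferase complex (-0.20, SE 0.052, adjusted p = 0.340), and Hells, a chromatin remodeller that opens hotspots (-0.15, SE 0.047, adjusted p = 0.378), had the smallest p-values. Break trimming had a median of -0.073 over 6 genes, with Rad50 (-0.11, SE 0.050) and the nuclease gene Exo1 (-0.15, SE 0.071) nearest to the threshold and neither passing (adjusted p = 0.502 and 0.508). Strand exchange had a median of -0.057 over 15 genes, 12 of them below the control mean. In that list Rad54l, a DNA translocase (-0.18, SE 0.040, adjusted p = 0.294), and Hsf2bp, which brings BRCA2 to meiotic breaks (-0.28, SE 0.076, adjusted p = 0.347), had the smallest p-values, while Dmc1, the meiotic recombinase, differed by -0.013.

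The genes most like Spo11 over the 6 arrays were taken by the root mean square difference of their values, each minus its own control mean. They were Henmt1, which methylates piRNA ends (0.054), Glipr1l2 (0.058) and Tdrd1, a tudor-domain protein of germ granules (0.064). Henmt1 read 8.51, 8.56 and 8.59 in the knockout and 8.84, 8.83 and 8.95 in the control, with a difference of -0.32 (SE 0.050, adjusted p = 0.242). Tdrd1 differed by -0.40 (SE 0.059, adjusted p = 0.239) and Glipr1l2 by -0.32 (SE 0.073, adjusted p = 0.294). For Mei1 the 3 nearest clusters all carried the symbol of Cks2, which encodes a small protein that binds cyclin-dependent kinases, with distances of 0.018 to 0.024 and differences of -0.22 to -0.21. Probes of near-identical copies may read the same transcript, so these are not 3 independent genes. The clusters were picked for values like those of Spo11 or Mei1 on these same arrays. Their lower knockout values follow from that choice and are not separate evidence. None of these clusters passed in limma.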

How the data were processed

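The deposited table holds log2 values, 1 per transcript cluster and array. The authors made them with RMA in Affymetrix Expression Console, per the submitters' processing notes, with versions and build not given in the sources used here. RMA gives all arrays 1 distribution, so a shift of all transcripts would not be seen. All 6 values of each of the 8 genes lay above every array median (8.075 to 8.1). No 2 arrays shared more than 4.12% of values.

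Of 35556 rows, those with 1 platform symbol (21789) were tested, named by gene identifier through RefSeq's GRCm38.p6 table. Groups were compared with limma 3.58.1 in R 4.3.3 (functions lmFit and eBayes), adjusting by Benjamini-Hochberg over all tested clusters. Exact permutation tests used SciPy 1.17.1. The fit was tested on simulated data. A gene with several clusters was represented in lists by the brightest. Of each list the 2 genes with the smallest p are named where none passed; Stra8, Hormad1 and Dmc1 were named after their values were seen. Genes most like Spo11 and Mei1 were sought among clusters whose arrays span at least 0.3. The members and lists were chosen with earlier results of these data known. Alternatives were centring on array medians or on 2 marker lists, a filter on dim clusters (means under 6.97), all rows tested, the replicate number as a block, an intensity trend with robust prior, treat at 1.2-fold, an adjusted p under 0.1, and each array left out. The targeted gene is not reported here.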

Additional observations from a re-analysis of the deposited data

How the results depend on the processing

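The count of break machinery genes past an adjusted p of 0.05 was 0 as deposited and 1 (Top6bl) with arrays centred on the early prophase markers; it was 0 under every other setting, each left-out array and an adjusted p under 0.1 included. The count of members lower at an unadjusted p under 0.05 was 3; it was 1 with either marker centring and 0 with treat at 1.2-fold, and ranged from 2 to 4 with 1 array left out. Over all clusters the 3 calls became 38 with the pan-germ centring, 279 with the early prophase centring, 7 with a trend and robust prior, 6 at an adjusted p under 0.1, and 0 with all rows tested, with the replicate block and with treat; with 1 array left out they ranged from 0 to 52, the 52 without control replicate 1. Centring moves what every difference is measured against, and the early prophase fit also used 1 pooled variance for all clusters, on which its calls rest. Otherwise the cause of these changes was not tested. The replicate numbers do not pair the samples by the labels, and the deviations of same-numbered arrays correlated at 0.17, -0.054 and 0.17; with the replicate block no member passed (Spo11 adjusted p = 0.263). Among 112 values of members under other settings, 108 kept direction and call and Rec114 was at 0 with the pan-germ centring; Zcwpw1 changed sign without knockout replicate 3 (-0.005) and without control replicate 2 (-0.0083), with a range of -0.0083 to 0.11 over the left-out arrays. Of the named genes of the other lists, signs turned for Trip13 (0.0033), Rad50 (0.037), Kdr (0.01) and Adipoq (0.11) with the pan-germ centring, for Adipoq (0.068) with the early prophase centring, and for Adam7 without control replicate 3 (0.038, range -0.57 to 0.038 over the left-out arrays). Of 251 medians of gene lists under other settings, 41 moved by more than 1 SD and 27 changed sign. Under both marker centrings the medians of the 4 process lists were above 0 but below those of all clusters (0.11 and 0.15). The early prophase median was 0.09 with the pan-germ centring. With the early prophase centring it was 0.048, where the mean difference of that list is 0 by construction. The median of undifferentiated spermatogonia was -0.083 with dim clusters left out. Of the named genes outside the machinery, Gfra1 and Kitl passed under both marker centrings, and Tcp11, Cyp11a1, Star and Alas2 with the early prophase one. Signal over background was not used here.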

Other observations

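Outside meiotic prophase, spermatogonial and somatic genes lay on both sides of the controls, some by as much as Spo11 (-0.35). The unadjusted p-values of Gfra1 and Kitl in limma were smaller than that of any member. With the values as deposited none of those named here passed an adjusted p of 0.05 in limma. Undifferentiated spermatogonia had a median difference of 0.11 over 11 genes, 6 above and 5 below the control mean, and it was -0.083 with dim clusters left out. Gfra1, the GDNF receptor of stem cells, differed by 0.39 (SE 0.062, adjusted p = 0.242). Its adjusted p in limma was 0.0239 with arrays centred on the pan-germ markers, where 42.6% of all clusters had an adjusted p under 0.1. With the early prophase markers it was 7.65e-04 in limma, with 1 variance for all clusters. Sall4, a zinc-finger factor, differed by -0.30 (SE 0.063, adjusted p = 0.288). Differentiating spermatogonia had a median of -0.15 over 6 genes, with Dmrtb1, which takes part in the exit of spermatogonia from mitosis, at -0.36 (SE 0.076, adjusted p = 0.288) and Sohlh2 at -0.22 (SE 0.061, adjusted p = 0.347). The spermatid list had a median of 0.0067 over 8 genes, with Prm1 at 0.21 and Gapdhs at 0.08, and its list means of 6.59 to 6.64 in the knockout and 6.53 to 6.60 in the control lay below the array medians.

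Of 12 Sertoli genes 10 lay above the control mean (median 0.073), led by Kitl, the ligand of the receptor KIT (0.28, SE 0.041, adjusted p = 0.235), and Trf (0.16). The adjusted p of Kitl in limma was 0.0395 with the pan-germ centring and 0.0325 with the early prophase one. The limits given for Gfra1 hold there too. All 4 Leydig genes lay above the control mean (median 0.38), with Cyp11a1 at 0.37 and Star at 0.45. Without knockout replicate 3 the Leydig median was 0.22 and Star differed by 0.14. Without control replicate 3 Star differed by 0.295. Cyp17a1 read 9.93 on control replicate 3, against 11.27 and 11.06 on the other controls and 11.06, 10.98 and 11.40 in the knockout, so its place above the controls rests on that array. Cyp11a1, Star and Alas2 passed with the early prophase centring (adjusted p = 0.00159, 7.52e-05 and 0.0382 in limma, with 1 variance for all clusters). Above the control mean lay also 8 of 9 macrophage genes (median 0.13), with Cx3cr1 and C1qc both at 0.16. Medians were -0.02 for 5 peritubular myoid genes (Des 0.15, Tagln -0.15), -0.0017 for 6 endothelial genes (Vwf 0.077, Kdr -0.13), 0.20 for 2 red cell genes (Alas2 0.28, Slc4a1 0.13), -0.15 for 4 epididymal genes (Lcn5 -0.31, Adam7 -0.36) and -0.01 for 3 adipocyte genes (Plin1 0.12, Adipoq -0.033). Without control replicate 3 Lcn5 differed by -0.085, Adam7 by 0.038 and the epididymal median was 0.019. The part of these cells in the differences of the break machinery was not tested.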
